A study of Homo sapiens with 29 samples.

Results

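Replacement histone variants are the histones made outside the clustered histone genes, and 8 of their genes were chosen by name: H3-3A, H3-3B, H2AZ1, H2AZ2, H2AX, MACROH2A1, MACROH2A2 and H2AJ. Probes were named through the RefSeq accession that each array file lists for them, and 7 of the 8 genes had a probe among the 18432 genes tested. H3-3B was not analysed here. The cells were LHCN-M2, a human myoblast line immortalized with telomerase and CDK4, so all groups carry an added regulator of the cell cycle. They were transfected with 20 nM of nontargeting siRNA or ZNF148 siRNA and grown in growth media for 24 h (subconfluent), 48 h or 96 h (confluent), or in differentiation media for 48 or 96 h. RNA of each culture was labelled and hybridized to a 1-colour Agilent array, which gave 29 arrays. Each of the 10 groups held 3 of them, apart from the nontargeting group at 96 h in growth media, which held 2. The study's methods give the times as 48 or 96 h in either media, and place the change to differentiation media after the transfection. Arrays of both media at the same hours may therefore differ also in the time since transfection. The labels call the arrays of a group biological replicates, and the p-values measure the spread between these arrays.

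A nucleosome can exchange its core histones for variants that are supplied throughout the cell cycle, whereas most histone mRNA is made in S phase from the clustered genes. H2A.Z, encoded by H2AZ1 and H2AZ2, is placed at promoters and enhancers, H2AX is phosphorylated around DNA breaks, and macroH2A, encoded by MACROH2A1 and MACROH2A2, carries a large extra domain and is found in silent chromatin. H3.3, encoded by H3-3A and H3-3B, replaces H3 at active genes and, in muscle cells, is placed at muscle genes by the HIRA chaperone, and H2A.J is an H2A-like variant known to accumulate in senescent cells.

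ZNF148 is a zinc finger transcription factor, and the comparisons ask how its loss changes gene expression before and during muscle differentiation. The ZNF148 signal was lower on every array with ZNF148 siRNA than on every nontargeting array of the same time and media. The log2 difference ran from -1.53 at 24 h in growth media to -2.74 at 96 h in differentiation media. The muscle markers MYOD1, MYF5, DES, TNNC2 and CDH15 were well above background on all 29 arrays, MYH3 on 28, MYOG on 24, CKM on 23 and PAX7 on 20. The fat cell markers PLIN1, FABP4 and ADIPOQ were so on 0, 1 and 4 arrays. Of the fibroblast markers, PDGFRA and LUM were so on all 29 and TCF21 on 3. The endothelial markers CDH5, PECAM1 and VWF were so on 29, 26 and 25. Of the epithelial markers, KRT18 was so on all 29, CDH1 on 3 and EPCAM on 2. The leukocyte markers PTPRC and CD3E were so on 26 and 11. Of the 12 markers of other cell types tested, 3 to 5 passed the test in each knockdown comparison. Their median log2 signal on an array ran from 4.74 to 5.18 at 24 h and from 5.27 to 6.29 later, and their part in the results was not tested. On 1 array, replicate 1 of the nontargeting group at 48 h in growth media, the signal of CKM, the muscle creatine kinase, was 16.03, against 5.83 and 5.91 on the other arrays of its group. Most of the members' values that use this array are therefore given with and without it, and values of further probes with it only. For lists mostly the counts and medians are given both ways. The 24 h arrays were on a slide of their own, so levels at 24 h and later cannot be told apart from slide. Each knockdown comparison at 24 h lies within 1 slide. With nontargeting siRNA, the 96 h arrays of both media shared no slide, so media and slide differ together in that comparison.

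The 4 members whose levels varied most, and whose changes the results turn on, are shown with the 250 bases before their RefSeq start, read 5′ to 3′ on the strand of the gene (build GRCh38.p14). Capitals mark the CCAAT box, as CCAAT or, on the other strand, ATTGG, and the TATA box, TATAAA. H2AZ1 lies on the minus strand at chr4:99950276-99950525, H2AX on the minus strand at chr11:119095466-119095715, H2AJ on the plus strand at chr12:14774155-14774404, and MACROH2A2 on the plus strand at chr10:70052596-70052845.
H2AZ1 promoter: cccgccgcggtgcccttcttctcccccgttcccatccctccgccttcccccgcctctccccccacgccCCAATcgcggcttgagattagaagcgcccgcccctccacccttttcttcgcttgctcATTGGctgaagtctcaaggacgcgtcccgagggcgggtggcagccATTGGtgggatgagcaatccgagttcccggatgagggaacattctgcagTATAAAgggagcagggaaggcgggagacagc
H2AX promoter: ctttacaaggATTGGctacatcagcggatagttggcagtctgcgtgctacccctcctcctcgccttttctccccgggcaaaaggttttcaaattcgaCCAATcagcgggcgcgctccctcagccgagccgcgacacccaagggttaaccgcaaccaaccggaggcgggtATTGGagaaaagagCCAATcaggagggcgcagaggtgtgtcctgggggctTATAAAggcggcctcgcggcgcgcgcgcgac
H2AJ promoter: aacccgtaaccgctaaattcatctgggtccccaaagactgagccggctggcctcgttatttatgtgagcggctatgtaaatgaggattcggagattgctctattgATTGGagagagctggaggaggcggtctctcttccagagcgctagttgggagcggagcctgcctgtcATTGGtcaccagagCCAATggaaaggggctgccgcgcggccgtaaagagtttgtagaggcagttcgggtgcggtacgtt
MACROH2A2 promoter: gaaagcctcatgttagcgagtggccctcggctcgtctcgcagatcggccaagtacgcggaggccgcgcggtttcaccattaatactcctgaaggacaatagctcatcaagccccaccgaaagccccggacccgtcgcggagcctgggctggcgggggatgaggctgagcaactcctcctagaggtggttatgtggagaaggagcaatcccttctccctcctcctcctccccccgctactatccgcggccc
The H2AZ1 window held 3 CCAAT boxes and 1 TATA box. The H2AX window held 4 CCAAT boxes and 1 TATA box. The H2AJ window held 3 CCAAT boxes and no TATA box, and the MACROH2A2 window held neither. Of 35116 windows of the same length from RefSeq starts of 27305 genes, 32.0% held a CCAAT box and 3763 of the windows held a TATA box, each on either strand. The GC box GGGCGG, in 42.6% of the windows, matched at 2 places in H2AZ1 and at none in the other 3. The letters TTTGGCGC, TTTCGCGC or TTTCCCGC, in 2.32% of the windows, matched in none of the 4. The letters TTTGAA or TTCGAA, in 14.3% of the windows, matched at 1 place in H2AX alone of these 4. Among the members that varied less, the H2AZ2 window held 4 CCAAT boxes, 1 GC box and 1 match to TTTGAA or TTCGAA. The MACROH2A1 windows held 0 and 2 CCAAT boxes, and each H3-3A window held 1 or 0. CCAAT boxes were thus not particular to the members that varied most. These matches describe the letters of the windows and not sites that were measured.

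Among the 7 genes, a pair moved together over a wide range. Another pair fell with ZNF148 knockdown in both media from 48 h on, and the group means of 3 genes spanned less. Single comparisons cut across these sets, as at 96 h in differentiation media H2AZ2 changed by -0.62 and H2AJ by -0.43. The highest group mean of H2AZ1 was 9.99-fold its lowest over the 10 groups, that of H2AX 5.62-fold, that of MACROH2A2 5.13-fold and that of H2AJ 4.32-fold. The same ratio was 2.27 for MACROH2A1, 1.64 for H2AZ2 and 1.56 for H3-3A. Of the 7 genes, 5 passed the limma test at 24 h in growth media (Benjamini-Hochberg adjusted p under 0.05), where 32.1% of all genes did. At 48 h in growth media 5 passed against 57.6% of all genes, at 96 h 5 against 56.1%, in differentiation media at 48 h 6 against 64.5%, and at 96 h 5 against 58.7%. Leaving out nontargeting replicate 1 at 48 h in growth media, 6 of the 7 passed there against 58.3% of all genes. A fall of more than 2-fold passed for 4 of the 7 at 48 h and for 4 at 96 h in growth media (H2AZ1, H2AX, MACROH2A2 and H2AJ at both times), where 12.2% and 12.4% of all genes fell as much (14.1% at 48 h without that replicate, with the count of members still 4). At 24 h it passed for 0 of the 7, against 3.03% of all genes, and in differentiation media for 2 at 48 h, against 17.2%, and for 1 at 96 h, against 12.8%. The arrays of the 2 siRNAs did not overlap for 7 of the 7 genes at 24 h, against 55.4% of all genes. They did not overlap for 6 of the 7 in each later comparison, against 62.7% and 74.9% of all genes in growth media at 48 and 96 h and 70% and 65.3% in differentiation media.

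**Figure D1:**
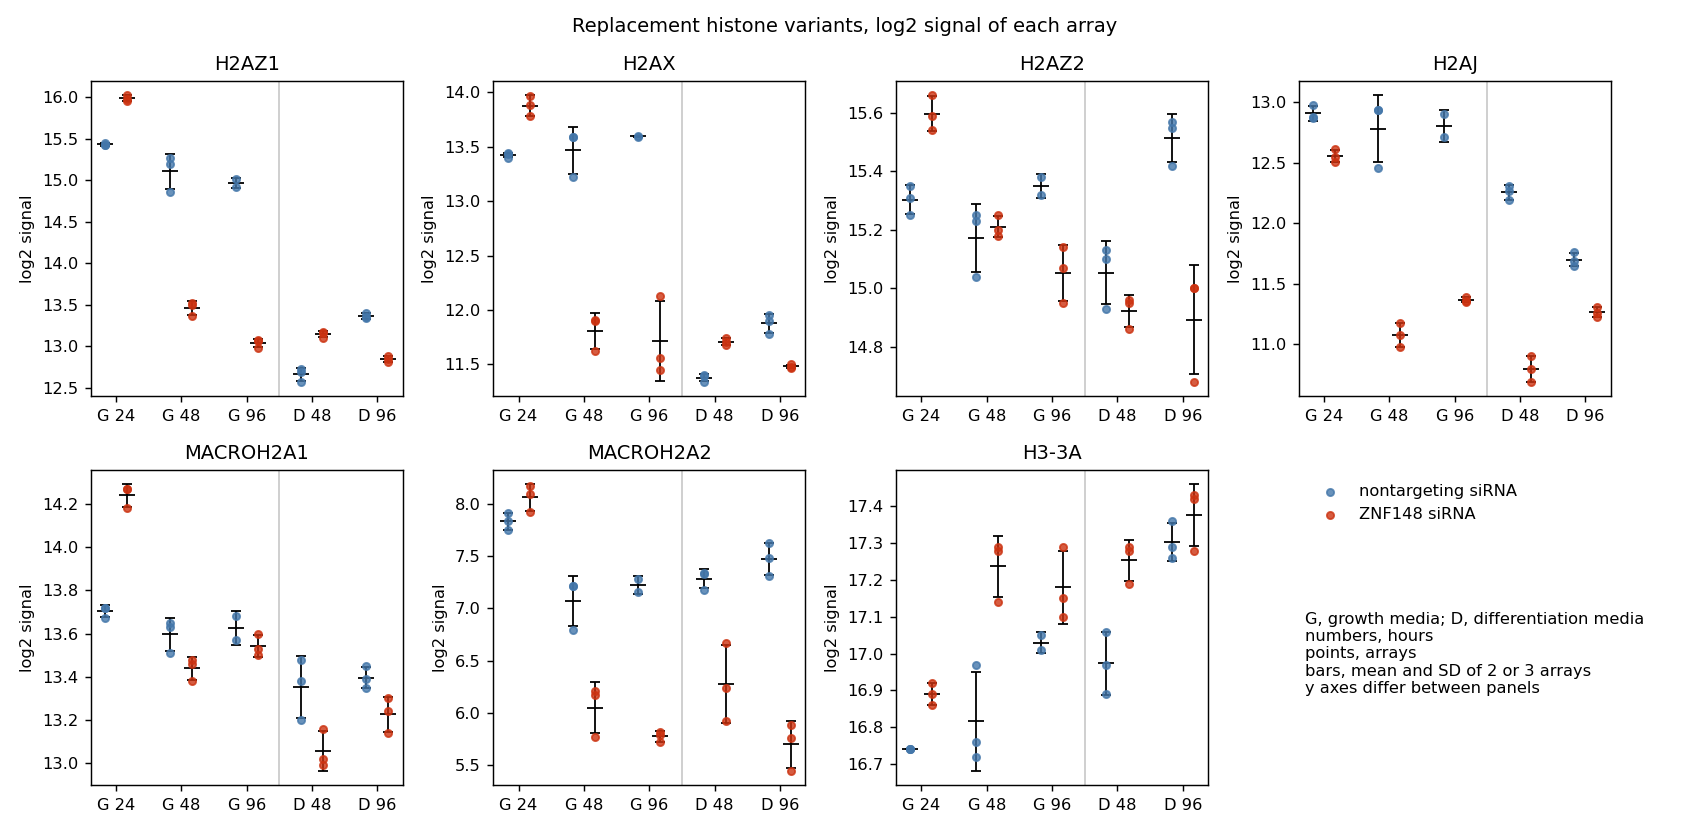
Log2 signal of each array (y axis, a scale of its own in each panel) for the 7 measured genes in growth media (G) and differentiation media (D) at the hours given (x axis). Points are arrays, and bars are the mean and SD of 2 or 3 arrays. H2AZ1 and H2AX dropped with ZNF148 siRNA at 48 and 96 h in growth media and were already low in differentiation media with nontargeting siRNA.

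H2AZ1, an H2A.Z gene, rose at 24 h with ZNF148 knockdown and fell steeply at 48 and 96 h in growth media. Its log2 signal at 24 h was 15.42, 15.45 and 15.42 with nontargeting siRNA and 16.02, 15.98 and 15.95 with ZNF148 siRNA. By 48 h it was 14.86, 15.19 and 15.26 against 13.52, 13.50 and 13.36. At 96 h it was 15.01 and 14.92 against 12.98, 13.06 and 13.07. The groups did not overlap at any of these times, with ZNF148 siRNA on the high side at 24 h and on the low side after it. The log2 change was 0.55 (SE 0.0765, limma adjusted p = 1.21e-05) at 24 h, -1.65 (SE 0.0765, adjusted p = 3.25e-13) at 48 h and -1.93 (SE 0.0856, adjusted p = 1.66e-13) at 96 h. Without nontargeting replicate 1 the change at 48 h was -1.77.

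In differentiation media H2AZ1 was low with either siRNA. At 48 h its log2 signal was 12.72, 12.69 and 12.57 with nontargeting siRNA and 13.10, 13.16 and 13.17 with ZNF148 siRNA. By 96 h the values were 13.40, 13.35 and 13.34 against 12.84, 12.81 and 12.88. ZNF148 knockdown thus went with a higher level at 48 h and a lower one at 96 h, by 0.48 (SE 0.0765, limma adjusted p = 1.22e-05) and -0.52 (SE 0.0765, adjusted p = 6.55e-06). With nontargeting siRNA alone, differentiation media lowered H2AZ1 by a log2 change of -2.44 (SE 0.0765) at 48 h and -1.60 (SE 0.0856) at 96 h. The value at 48 h was -2.56 without nontargeting replicate 1 in growth media. In this comparison 4 of the 7 genes passed at 48 h, where 49.3% of all genes did (5 and 50.3% without that replicate), and 5 at 96 h, where 43.5% did. The knockdown comparisons share these nontargeting arrays with the media comparisons. At 96 h the nontargeting arrays of both media lay on different slides. In all, 2 of the 9 neighbouring pairs in the order of the 10 group means of H2AZ1 overlapped in their arrays.

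H2AX, the variant marked at DNA breaks, showed changes of like size. Its log2 signal at 24 h in growth media was 13.40, 13.44 and 13.43 with nontargeting siRNA and 13.97, 13.88 and 13.78 with ZNF148 siRNA. By 48 h it was 13.22, 13.59 and 13.59 against 11.90, 11.91 and 11.62. At 96 h it was 13.60 and 13.59 against 11.45, 11.56 and 12.13. The groups were apart at each time, and replicate 3 of ZNF148 siRNA at 96 h lay above the other arrays of its group. The log2 change was 0.45 (SE 0.127, limma adjusted p = 0.0117) at 24 h, -1.66 (SE 0.127, adjusted p = 7.38e-10) at 48 h and -1.89 (SE 0.142, adjusted p = 5.87e-10) at 96 h. Without nontargeting replicate 1 the change at 48 h was -1.78. The call at 24 h was lost without replicate 1 of ZNF148 siRNA, at 0.40 and an adjusted p of 0.0553.

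In differentiation media H2AX was at 11.39, 11.40 and 11.34 at 48 h with nontargeting siRNA and at 11.74, 11.71 and 11.68 with ZNF148 siRNA. By 96 h it was at 11.95, 11.90 and 11.78 against 11.47, 11.48 and 11.50. The changes were small beside those in growth media, at 0.34 (SE 0.127, limma adjusted p = 0.03) and -0.39 (SE 0.127, adjusted p = 0.0136). The call at 48 h was lost when any 1 of its 6 arrays was left out, with adjusted p between 0.051 and 0.0744. The call at 96 h was lost without replicate 1 of nontargeting siRNA, at -0.36 and an adjusted p of 0.0508, and with normexp background correction, at -0.28 and an adjusted p of 0.0552. Differentiation media with nontargeting siRNA lowered H2AX by -2.09 (SE 0.127) at 48 h, or -2.21 without nontargeting replicate 1 in growth media, and by -1.72 (SE 0.142) at 96 h. Over the 10 group means H2AX and H2AZ1 had a Pearson r of 0.986 and a Spearman rho of 0.939, as a description of groups that share arrays and normalization.

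Both genes were tested for a difference between the knockdown effects themselves. In growth media, where 6 of the 7 genes passed against 45.4% of all genes for 48 against 24 h and 6 against 46.8% for 96 against 24 h, the H2AZ1 effect was lower at 48 h than at 24 h by -2.20 (SE 0.108, limma adjusted p = 3.5e-12). The H2AX effect was lower by -2.11 (SE 0.179, adjusted p = 9.9e-09). Without nontargeting replicate 1 at 48 h these differences were -2.32 and -2.23. Between media, 2 of the 7 genes passed at 48 h against 42% of all genes, and they were H2AZ1, with an effect higher in differentiation media by 2.13 (SE 0.108), and H2AX, by 1.99 (SE 0.179). Without that replicate they were 2.25 and 2.12, and the H2AJ difference, 0.24 with all arrays (adjusted p = 0.205), became 0.40 (adjusted p = 0.00269). At 96 h 3 of the 7 passed against 31.5% of all genes, with differences of 1.41 (SE 0.115) for H2AZ1, 1.49 (SE 0.19) for H2AX and 1.00 (SE 0.145) for H2AJ, of which the last did not pass with the mean over the tested probes.

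**Figure D2:**
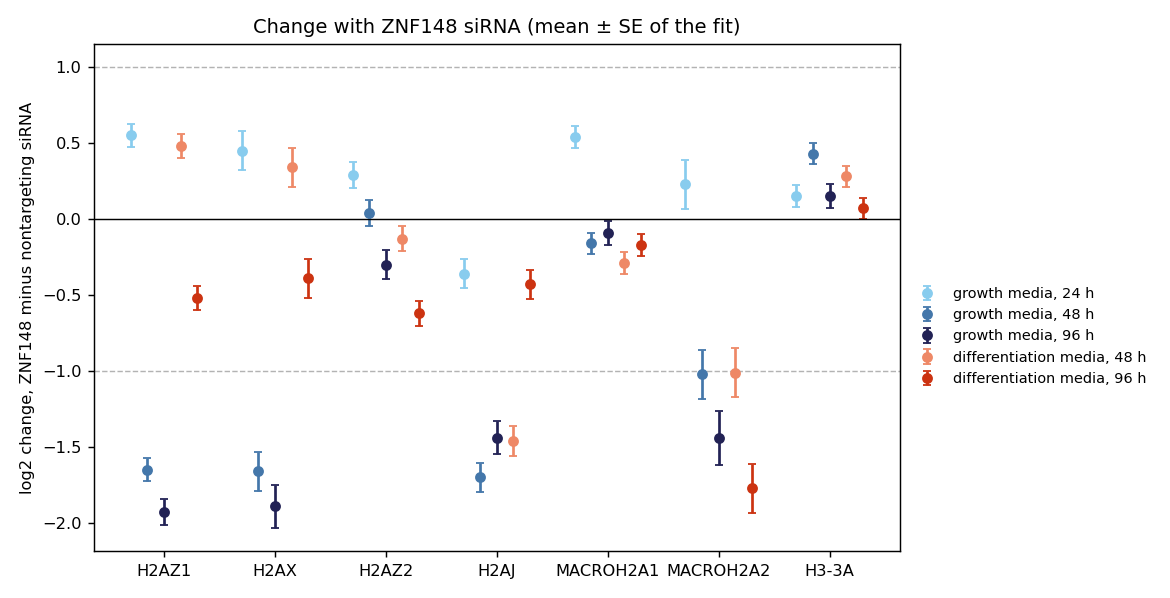
Log2 change of each gene (y axis, ZNF148 siRNA minus nontargeting siRNA, mean and SE from limma) in the 5 knockdown comparisons, with dashed lines at 2-fold. H2AZ1 and H2AX change sign with time and media, H2AJ is below 0 in all 5 comparisons, and MACROH2A2 is at or below -1.01 in the 4 comparisons after 24 h.

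MACROH2A2, the less widely expressed macroH2A gene, fell with ZNF148 knockdown in both media at 48 and 96 h. Its log2 signal at 48 h in growth media was 6.79, 7.21 and 7.21 with nontargeting siRNA and 6.21, 5.77 and 6.17 with ZNF148 siRNA, and 96 h gave 7.16 and 7.28 against 5.72, 5.79 and 5.82. In differentiation media it was 7.34, 7.33 and 7.18 against 6.67, 5.92 and 6.24 at 48 h. At 96 h there it was 7.31, 7.48 and 7.62 against 5.76, 5.45 and 5.89. Every array with ZNF148 siRNA lay below every nontargeting array of its time and media. The log2 change was -1.02 (SE 0.161, limma adjusted p = 1.54e-05) and -1.44 (SE 0.18, adjusted p = 8.6e-07) in growth media at 48 and 96 h, and -1.16 at 48 h without nontargeting replicate 1. In differentiation media it was -1.01 (SE 0.161, adjusted p = 1.3e-05) and -1.77 (SE 0.161, adjusted p = 7.14e-09). The effects in the 2 media did not pass the test of their difference, with 0.01 (SE 0.228) at 48 h, or 0.15 without that replicate, and -0.33 (SE 0.241) at 96 h.

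At 24 h MACROH2A2 was at 7.83, 7.75 and 7.91 with nontargeting siRNA and at 8.17, 8.09 and 7.92 with ZNF148 siRNA, a log2 difference of 0.23 (SE 0.161, limma adjusted p = 0.364). Differentiation media with nontargeting siRNA gave 0.22 (SE 0.161, adjusted p = 0.339) at 48 h and 0.25 (SE 0.18, adjusted p = 0.331) at 96 h. The value at 48 h was 0.08 without nontargeting replicate 1 in growth media. Whether the effects of knockdown and of media differ was not tested. Its probe was well above background on all 29 arrays. With normexp background correction its falls were smaller, at -0.64 and -0.77 in growth media and -0.63 and -1.05 in differentiation media, and all 4 kept an adjusted p under 0.05.

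H2AJ was the gene that was lower with ZNF148 siRNA in all 5 comparisons. Its log2 signal in growth media was 12.98, 12.87 and 12.88 against 12.51, 12.55 and 12.61 at 24 h, and 12.46, 12.94 and 12.94 against 10.98, 11.08 and 11.18 at 48 h. At 96 h it was 12.71 and 12.90 against 11.36, 11.35 and 11.39. In differentiation media it was 12.31, 12.27 and 12.19 against 10.90, 10.80 and 10.69 at 48 h, and 11.76, 11.65 and 11.69 against 11.31, 11.23 and 11.26 at 96 h. The groups did not overlap in any of these comparisons, and the level with ZNF148 siRNA was lowest at 48 h in differentiation media.

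The log2 change of H2AJ in growth media was -0.36 (SE 0.0967, limma adjusted p = 0.00902) at 24 h, -1.70 (SE 0.0967, adjusted p = 7.28e-12) at 48 h and -1.44 (SE 0.108, adjusted p = 5.92e-10) at 96 h. In differentiation media it was -1.46 (SE 0.0967, adjusted p = 2.59e-11) at 48 h and -0.43 (SE 0.0967, adjusted p = 0.000764) at 96 h. Without nontargeting replicate 1 the change at 48 h in growth media was -1.86. The fall at 24 h did not pass when arrays were scaled to their 75th percentile, at -0.22 and an adjusted p of 0.163. Differentiation media with nontargeting siRNA lowered H2AJ by -0.53 (SE 0.0967) at 48 h, or -0.69 without nontargeting replicate 1 in growth media, and by -1.10 (SE 0.108) at 96 h. A further H2AJ probe was well above background on 5 of 29 arrays and passed no test. Averaging it with the bright probe gave knockdown values of -0.88 at 48 h and -0.97 at 96 h in growth media and ended the calls at 24 h, at 96 h in differentiation media (-0.45, adjusted p = 0.259) and for differentiation against growth media at 48 h (-0.14, adjusted p = 0.814). It also ended the calls for the H2AJ differences of knockdown effects, which became -0.32 (adjusted p = 0.655) for 48 against 24 h, -0.40 (adjusted p = 0.583) for 96 against 24 h and 0.52 (adjusted p = 0.494) between media at 96 h.

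MACROH2A1, the main macroH2A gene, rose at 24 h and changed little later. Its log2 signal at 24 h was 13.72, 13.72 and 13.67 with nontargeting siRNA and 14.27, 14.27 and 14.18 with ZNF148 siRNA, which do not overlap. The log2 change was 0.54 (SE 0.0706, limma adjusted p = 6.57e-06). At 48 and 96 h in growth media it was -0.16 (SE 0.0706, adjusted p = 0.0738) and -0.09 (SE 0.079, adjusted p = 0.431), and without nontargeting replicate 1 the value at 48 h was -0.20 with an adjusted p of 0.0333. In differentiation media it was -0.29 (SE 0.0706, adjusted p = 0.00117) at 48 h and -0.17 (SE 0.0706, adjusted p = 0.0597) at 96 h. The call at 48 h was lost when arrays were scaled to their 75th percentile, at -0.02, and the value at 96 h passed without replicate 2 of ZNF148 siRNA, at -0.20 and an adjusted p of 0.0413. The effects at 48 and 96 h in growth media were lower than that at 24 h by -0.70 (SE 0.0999), or -0.74 without nontargeting replicate 1 at 48 h, and by -0.62 (SE 0.106). Differentiation media with nontargeting siRNA gave -0.25 (SE 0.0706, adjusted p = 0.00728) at 48 h, or -0.29 without nontargeting replicate 1 in growth media, and -0.23 (adjusted p = 0.0268) at 96 h, and the latter call was lost without nontargeting replicate 2 in growth media (-0.17, adjusted p = 0.234) or nontargeting replicate 1 or 2 in differentiation media. The call at 48 h was lost without nontargeting replicate 3 in differentiation media (adjusted p = 0.0681). With the slide as a block the value at 96 h in differentiation media passed (-0.18, adjusted p = 0.0351) and the difference between media at 96 h with nontargeting siRNA did not (-0.22, adjusted p = 0.0553). Splice forms of macroH2A1 were not told apart, and which of them the probe reads was not tested.

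H2AZ2, which encodes a form of H2A.Z that differs from that of H2AZ1 in a few residues, was measured by a bright and a dim probe. On the bright probe the log2 signal at 96 h in differentiation media was 15.55, 15.57 and 15.42 with nontargeting siRNA and 15, 14.68 and 15 with ZNF148 siRNA, which do not overlap. The log2 change was 0.29 (SE 0.0834, limma adjusted p = 0.0126) at 24 h, 0.04 (SE 0.0834, adjusted p = 0.778) at 48 h and -0.30 (SE 0.0933, adjusted p = 0.0122) at 96 h in growth media. In differentiation media it was -0.13 (SE 0.0834, adjusted p = 0.227) at 48 h and -0.62 (SE 0.0834, adjusted p = 2.21e-06) at 96 h. The dim probe, listed for another RefSeq transcript, gave larger falls at 96 h, of -1.12 (SE 0.196) in growth media and -1.48 (SE 0.175) in differentiation media, and -0.06 (SE 0.175, adjusted p = 0.89) at 24 h. It was well above background on 28 of 29 arrays. On the bright probe the call at 24 h was lost without replicate 1 of either siRNA (adjusted p of 0.0539 and 0.0588), and that at 96 h in growth media without nontargeting replicate 1 or ZNF148 replicate 3 (adjusted p of 0.0943 and 0.0589). With the slide as a block the latter value was -0.21 (adjusted p = 0.0615), and the difference between the effects in both media at 96 h, -0.32 without the block (adjusted p = 0.0712), was -0.42 (adjusted p = 0.0155).

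H3-3A, which encodes H3.3, had 3 probes, and they did not move alike. The brightest was at 16.97, 16.72 and 16.76 with nontargeting siRNA and at 17.28, 17.29 and 17.14 with ZNF148 siRNA at 48 h in growth media. The arrays with ZNF148 siRNA were all higher, by 0.43 (SE 0.0707, limma adjusted p = 2.94e-05), and by 0.50 without nontargeting replicate 1. In differentiation media at 48 h the same probe was higher by 0.28 (SE 0.0707, adjusted p = 0.00187). A further probe for the same accession was lower there by -0.33 (SE 0.0663, adjusted p = 0.000213), at 15.50, 15.39 and 15.31 against 15.03, 15.14 and 15.04. The remaining probe was higher by 0.26 (SE 0.0653) there and by 0.47 (SE 0.0653) at 48 h in growth media. The direction for H3-3A in differentiation media thus depends on the probe. On the brightest probe the changes at 24 h (0.15, adjusted p = 0.141), at 96 h in growth media (0.15, adjusted p = 0.132) and at 96 h in differentiation media (0.07, adjusted p = 0.427) did not pass. At 24 h both other probes did, at 0.25 (adjusted p = 0.00742) and 0.24 (adjusted p = 0.0105), as did the mean over the probes (0.21, adjusted p = 0.0118). With arrays scaled to their 75th percentile the brightest probe passed at 24 h (0.27, adjusted p = 0.00394) and at 96 h in differentiation media (0.32, adjusted p = 0.000389), and with the slide as a block at 96 h in growth media (0.21, adjusted p = 0.0374). At 96 h in differentiation media the probe that had fallen at 48 h was lower by -0.28 (adjusted p = 0.0013). Differentiation media with nontargeting siRNA gave 0.16 (adjusted p = 0.0884) at 48 h and 0.27 (adjusted p = 0.01) at 96 h on the brightest probe. Without nontargeting replicate 1 in growth media its value at 48 h was 0.23 (adjusted p = 0.00979). Without nontargeting replicate 2 in growth media its value at 96 h was 0.25 (adjusted p = 0.0738). With all arrays, the probe that had fallen with knockdown gave 0.49 (adjusted p = 3.18e-06) at 48 h and 0.47 (adjusted p = 3.17e-05) at 96 h for the same media comparison. The remaining probe gave 0.20 (adjusted p = 0.0182) and 0.34 (adjusted p = 0.000919). H3-3A has near-identical copies in the genome, and which of them each probe also reads was not tested.

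**Figure D3:**
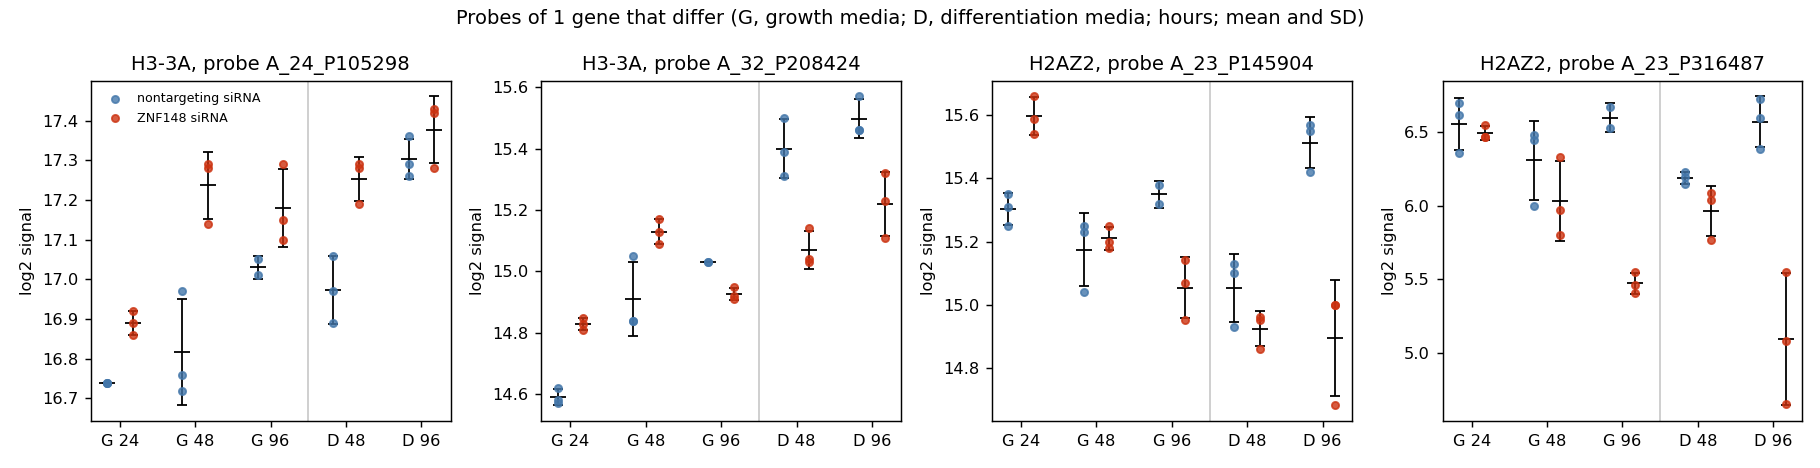
Log2 signal of each array (y axis) on a pair of probes each for H3-3A and H2AZ2 in growth media (G) and differentiation media (D) at the hours given (x axis), with the mean and SD of 2 or 3 arrays. The H3-3A probes differ in direction in differentiation media at 48 h (0.28 and -0.33), and the dim H2AZ2 probe falls further at 96 h (-1.48) than the bright one (-0.62).

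Genes that place the variants in chromatin changed in both directions, and the shares of a list that passed are to be read against 32.1%, 57.6% and 56.1% of all genes at 24, 48 and 96 h in growth media and 64.5% and 58.7% in differentiation media at 48 and 96 h. Of 31 tested genes for chaperones and remodellers of variants, 9 rose and 5 fell at 24 h, 7 rose and 15 fell at 48 h and 2 rose and 16 fell at 96 h in growth media, with medians of 0.09, -0.21 and -0.21 on the log2 scale. The medians of all genes were 0.00, -0.05 and -0.03. In differentiation media 6 rose and 14 fell at 48 h, with a median of -0.23, and 5 rose and 19 fell at 96 h, with a median of -0.34. The medians of all genes there were -0.05 and -0.06. Of all 18432 genes, 2847 rose and 3071 fell at 24 h, and 4804 rose and 5531 fell at 96 h in growth media. The list's counts at 48 h in growth media were 6 and 17 without nontargeting replicate 1, with a median of -0.24.

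HJURP, the chaperone of the centromeric H3 variant, fell, with log2 changes of -4.18 at 48 h and -5.44 at 96 h in growth media and -2.29 at 96 h in differentiation media. Its values were -0.03 (SE 0.141, limma adjusted p = 0.948) at 24 h and -0.13 (SE 0.141, adjusted p = 0.493) at 48 h in differentiation media. DAXX, an H3.3 chaperone, fell in all 5 comparisons, and its log2 changes at 24, 48 and 96 h in growth media were -0.31, -1.22 and -0.83, and those in differentiation media -1.28 and -0.58. ANP32E, which removes H2A.Z from nucleosomes, fell in growth media, with -0.87 at 48 h and -1.38 at 96 h, and rose by 0.74 (SE 0.106) at 48 h in differentiation media. DEK, a chromatin protein with H3.3 chaperone activity, rose by 2.35 (SE 0.114, adjusted p = 1.65e-13) at 48 h and by 1.14 (SE 0.114) at 96 h in differentiation media. In growth media its values were -0.25 (adjusted p = 0.124) at 24 h, 0.55 (adjusted p = 0.000358) at 48 h and -0.34 (adjusted p = 0.035) at 96 h. ASF1A, which hands H3 to HIRA, fell in growth media at 24 h (-0.73, adjusted p = 0.0476), 48 h (-0.80, adjusted p = 0.0151) and 96 h (-1.29). In differentiation media it fell at 96 h (-1.26, with 2 of 3 knockdown arrays well above background) and was at -0.37 (adjusted p = 0.259) at 48 h. INO80B, a subunit of the INO80 remodeller, fell by 1.05 at 48 h in differentiation media and by 0.38 (adjusted p = 0.0285) at 48 h in growth media.

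Of 17 genes for replication-coupled assembly and histone supply, 11 rose and 0 fell at 24 h, 2 rose and 12 fell at both 48 and 96 h in growth media, and their medians were 0.60, -0.93 and -1.17. In differentiation media 3 rose and 9 fell at 48 h and 2 rose and 14 fell at 96 h, with medians of -0.28 and -0.68. ASF1B, a chaperone of newly made H3 and H4, fell in growth media, with -3.29 at 48 h and -4.02 at 96 h. CHAF1A and CHAF1B, subunits of the CAF-1 chaperone, rose by 0.64 (SE 0.11) and 0.76 (SE 0.113) at 24 h, and fell at 48 h in growth media (-2.48 and -2.64). PCNA, the sliding clamp of replication, rose by 0.94 (SE 0.0829) at 24 h and fell in the 4 other comparisons, with values from -1.42 to -2.22. MCM2, a subunit of the replicative helicase that also binds histones, rose by 0.75 (SE 0.0958) at 24 h and fell by 1.88 at 48 h in growth media. MMS22L, which acts with TONSL at stalled forks, rose by 0.69 (SE 0.145) at 24 h and fell by 2.31 at 48 h in growth media. The list's counts at 48 h in growth media were 2 and 12 also without nontargeting replicate 1, with a median of -1.01.

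Of 17 genes that act on H2AX or signal from it at DNA breaks, 7 rose and 2 fell at 24 h, 4 rose and 11 fell at 48 h and 3 rose and 12 fell at 96 h in growth media. In differentiation media 5 rose and 9 fell at each of 48 and 96 h. The medians over the 5 comparisons, in that order, were 0.23, -0.46, -0.58, -0.21 and -0.45, and those of all genes were 0.00, -0.05, -0.03, -0.05 and -0.06. Over all genes 57.6% passed at 48 h in growth media and 64.5% at 48 h in differentiation media. Leaving out nontargeting replicate 1 gave the counts 4 and 11 and a median of -0.53 at 48 h in growth media.

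Other histone variant genes outside the clusters moved in either direction. Of 9 tested, 1 rose and 0 fell at 24 h, 2 rose and 4 fell at 48 h and 2 rose and 3 fell at 96 h in growth media, where 32.1%, 57.6% and 56.1% of all genes passed. In differentiation media 2 rose and 3 fell at 48 h and 2 rose and 4 fell at 96 h, against 64.5% and 58.7%. The counts at 48 h in growth media were the same without nontargeting replicate 1. H1-10, a linker histone, rose in every knockdown comparison. It rose by 0.62 (SE 0.119), 1.11 (SE 0.119) and 0.58 (SE 0.133) at 24, 48 and 96 h in growth media. In differentiation media it rose by 0.84 and 1.01 (SE 0.119 each). CENPA, the centromeric H3 variant, fell in growth media, with -3.59 at 48 h and -5.46 at 96 h, where 2 of 3 knockdown arrays were well above background. At 96 h in differentiation media no knockdown array was, and CENPA was at least 3.5-fold lower there, against the lowest signal above background. H3-5, an intronless H3.3 gene that resembles H3-3B, fell at 48 and 96 h in growth media (-1.17 and -1.18) and in differentiation media (-1.16 and -0.55). Which H3.3 transcripts its probe reads was not tested. H2BW2, an H2B variant gene, fell by 1.62 at 48 h in differentiation media and by 0.82 at 48 h in growth media. At 96 h it fell by 0.76 in differentiation media, with 2 of 3 knockdown arrays well above background. Its values at 24 h (0.05) and at 96 h in growth media (-0.24) did not pass.

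Of 29 proliferation genes, such as those of the replication licensing complex and mitotic kinases, 20 rose and 2 fell at 24 h, 1 rose and 28 fell at 48 h and 29 fell at 96 h in growth media, with medians of 0.73, -2.93 and -3.93. In differentiation media 7 rose and 14 fell at 48 h, with a median of -0.31, and 1 rose and 24 fell at 96 h, with a median of -2.11. With nontargeting siRNA, all 29 were lower in differentiation than in growth media, with medians of -3.52 at 48 h and -2.52 at 96 h. The lowest and highest median signal of the list on an array were 11.06 and 11.57 with nontargeting siRNA at 48 h in growth media, and 7.71 and 7.88 at 48 h in differentiation media. Of the 62 clustered histone genes tested, 50 rose and 1 fell at 24 h, and 10 rose and 43 fell at 48 h in growth media, with medians of 0.73 and -1.32. At 96 h there 14 rose and 40 fell (median -1.24). In differentiation media they moved both ways, with 24 up and 23 down at 48 h (median -0.02) and 25 up and 20 down at 96 h (median 0.13). At 48 h in growth media without nontargeting replicate 1, 1 proliferation gene rose and 28 fell (median -3.11), and 9 clustered histone genes rose and 43 fell (median -1.42). For differentiation against growth media at 48 h the proliferation median was -3.69 without it. Of the list genes with a value given above at 48 h in growth media, those that fell shifted by -0.06 to -0.21 without it. DEK shifted by 0.11 and H1-10 by 0.14. These lists moved with the H2AZ1 and H2AX values in growth media, and their part in those values was not tested. In bulk RNA, fewer cells that express a gene and less RNA of it per cell cannot be told apart.

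**Figure D4:**
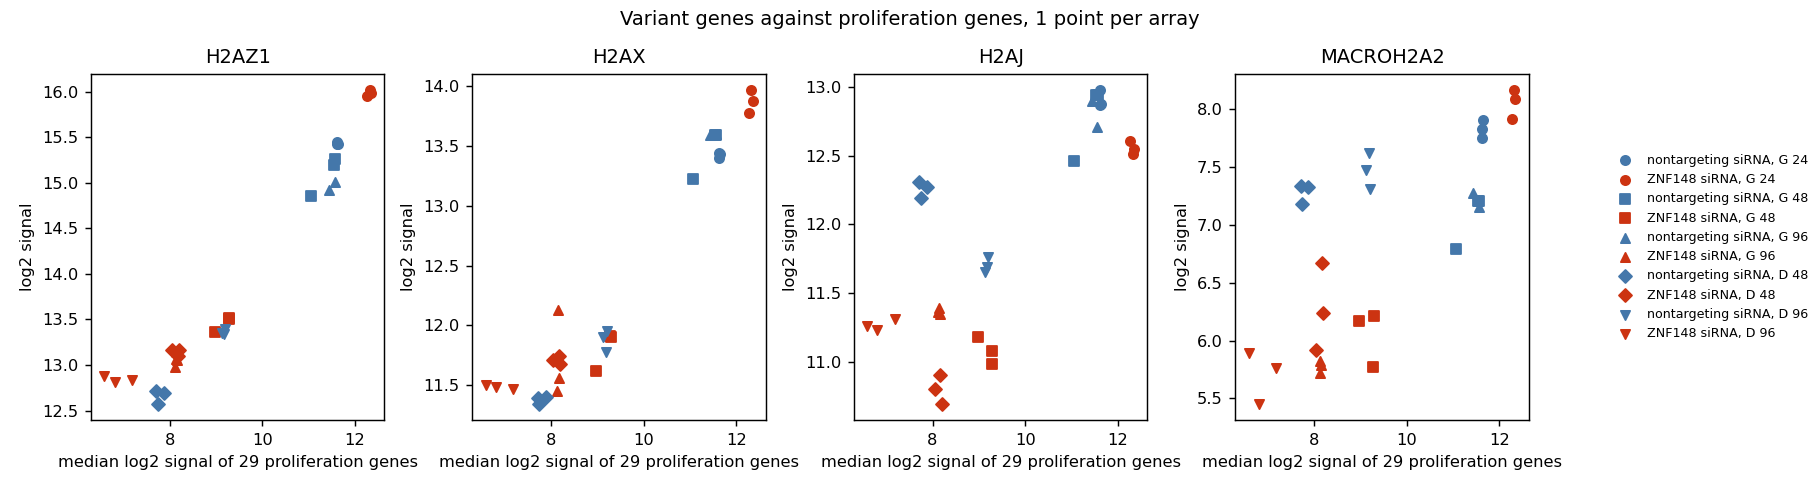
Log2 signal of H2AZ1, H2AX, H2AJ and MACROH2A2 (y axes) against the median log2 signal of 29 proliferation genes (x axis), with 1 point per array of the 10 groups (G, growth media; D, differentiation media; hours). Nontargeting arrays at 48 h in differentiation media (blue diamonds, x from 7.71 to 7.88) are low for H2AZ1 and H2AX. For H2AJ they are at 12.19 or above, against 12.46 or above at 48 h in growth media. For MACROH2A2 they are at 7.18 or above. Nontargeting arrays at 96 h in differentiation media are at 11.65 to 11.76 for H2AJ.

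The genes whose group means followed each member most closely were ranked by Pearson r over the 10 groups, as a description over 18431 other genes. They were KPNA2 (0.995), MCM8 (0.994) and BRCA1 (0.993) for H2AZ1, and FBXO5 (0.994), H2AC16 (0.993) and DTL (0.992) for H2AX. For H2AJ they were CD44 (0.991), B9D1 (0.990) and MET (0.989), and for MACROH2A2 PARD6G (0.987) and DUS4L (0.984). For MACROH2A1 they were NQO2 (0.968), HACD2 (0.961) and SIVA1 (0.955), and for H2AZ2 SLC25A22 (0.924), RPIA (0.924) and UIMC1 (0.917). For H3-3A they were MED13 (0.985), ZFAND6 (0.974) and STX17-DT (0.966). These groups share arrays, slides and normalization.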

How the data were processed

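RNA from LHCN-M2 cells was measured on 29 1-colour Agilent arrays, grouped by the labels. The authors deposited a matrix of log2 values, per the study's methods made from background-subtracted signals by quantile normalization, and these were used as deposited. Its unit was checked against the scanner files, which hold the intensity of each spot as deposited by the authors, extracted with Feature Extraction 10.7.3.1 per the file headers. Each of the 29 columns correlated best with its own array (r of at least 0.9951). The share of probes well above background was 41.6% on the dimmest and 56.5% on the brightest array, and precision is limited by how few arrays there are.

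Probes had to be well above background on 2 or more arrays, and the 38839 that were so were fitted with 10 group means in limma 3.58.1 (R 4.3.3, lmFit and eBayes, two-sided), with Benjamini-Hochberg adjustment over all of them. RefSeq accessions named 31104 probes, and a gene is given by its brightest tested probe. Counts over genes are over these probes. The fit was tested on simulated data for bias, sign, size of error and false calls, and a pass mark for the share of changes recovered was dropped after that share was seen.

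The members and lists were chosen with earlier results of these data known. Named were all members, and up to 6 genes each of the lists for variant deposition, replication-coupled assembly and other variants, past the threshold and 2-fold in a knockdown comparison. Some results are not reported here. Alternatives were scanner signals quantile-normalized or scaled to the 75th percentile, normexp (offset 50), no filter or a stricter one, fewer arrays in the fit, array weights, a trend with robust variances, a block for the replicate number or the slide, the methods' t-test, a 2-fold threshold, probe means and leaving out each array. A fit without nontargeting replicate 1 at 48 h in growth media, for comparisons that do not use it, was chosen after seeing the data. Promoter sequences are from RefSeq (GRCh38.p14). Since 14 of the array headers give hg19 and the other 15 give no build, no probe positions are given.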

Additional observations from a re-analysis of the deposited data

Results flagged for a closer look

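The knockdown effect differed between times or media, by the limma test of the difference itself, for these genes. From 24 to 48 h in growth media the log2 effect moved by 0.27 (adjusted p = 0.0374) for H3-3A, -2.20 for H2AZ1, -2.11 for H2AX, -0.70 for MACROH2A1, -1.26 for MACROH2A2 and -1.34 for H2AJ. Without nontargeting replicate 1 at 48 h these were 0.35, -2.32, -2.23, -0.74, -1.40 and -1.50. The H3-3A value is from the brightest of 3 probes, did not pass under 14 of the 24 alternatives, among them leaving out most single arrays (adjusted p up to 0.107), and on the other 2 probes was 0.22 (adjusted p = 0.0745) and -0.02 (adjusted p = 0.914). From 24 to 96 h it moved by -2.48 for H2AZ1, -0.59 for H2AZ2, -2.34 for H2AX, -0.62 for MACROH2A1, -1.67 for MACROH2A2 and -1.08 for H2AJ. The effects at 24 h come from another slide and scan than the later ones, and from subconfluent instead of confluent cells. The part of slide, scan and confluence in these differences cannot be told apart from time. Between differentiation and growth media the effect differed at 48 h by 2.13 for H2AZ1 and 1.99 for H2AX, and at 96 h by 1.41 for H2AZ1, 1.49 for H2AX and 1.00 for H2AJ. With the mean over the tested probes of H2AJ its 3 differences did not pass, at -0.32, -0.40 and 0.52 (adjusted p of 0.655, 0.583 and 0.494).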

How the results depend on the processing

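Over the alternatives, 1673 values of single members were recomputed. Of these, 1537 kept their side of the threshold, 99 lost the threshold, 37 gained it and 0 turned direction with a call. Among the 1537 were 24 values, past the threshold in neither fit, that changed sign. Of the members called, a change of more than 2-fold besides the adjusted p left 0 at 24 h in growth media, 2 at 48 h and 1 at 96 h in differentiation media, and 2 and 3 in the media comparisons at 48 and 96 h. The methods' t-test, unadjusted and with more than 2-fold, gave the same 5 counts (0, 2, 1, 2 and 3), and after Benjamini-Hochberg adjustment it gave 2 in the media comparison at 48 h. It was not run for differences of effects. By limma, of all 18432 genes 449 rose and 559 fell by more than 2-fold at 24 h in growth media. In differentiation media 2772 rose and 3174 fell so at 48 h, and 1925 and 2357 at 96 h. In the media comparisons 1420 rose and 1506 fell so at 48 h, and 1251 and 1524 at 96 h. A fit of only the arrays compared gave 2 and 3 in the media comparisons at 48 and 96 h, and array weights gave 4 for the difference between media at 48 h. The cause was not tested, beyond the smaller number of arrays or the added threshold.

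With 1 array left out at a time, the members called in growth media ranged from 3 to 5 at 24 h (3 without ZNF148 siRNA replicate 1), from 5 to 6 at 48 h and from 4 to 5 at 96 h. They were 5 throughout at 48 h and ranged from 4 to 6 at 96 h in differentiation media. The media comparisons ranged from 3 to 5 at both 48 and 96 h, with 3 at 96 h when replicate 2 of the nontargeting group at 96 h in growth media was left out. The differences of effects ranged from 5 to 6 for 48 against 24 h, were 6 throughout for 96 against 24 h, and ranged from 2 to 3 and from 3 to 4 between media at 48 and 96 h. Replicate numbers did not pair the arrays (correlations of deviations between -0.16 and 0.123), and with the replicate number as a block 5, 5, 5, 6 and 5 members were called in the 5 knockdown comparisons. The numbers are those of the titles, and the descriptions number the ZNF148 siRNA arrays at 48 h in growth media from 3 to 5 instead of 1 to 3. With the slide as a block the counts were 5, 5, 5, 6 and 6. The share of all genes is not given here beside these counts, so they cannot be set against it. Where slides hold both groups, the change within a slide at 48 h in growth media ran from -1.83 to -1.37 for H2AZ1 and from -1.97 to -1.31 for H2AX. Scaling to the 75th percentile moved the median of all genes by at most 0.11 on the log2 scale, at 48 h in differentiation media. Signal over background limits the values of MACROH2A2, the dim H2AZ2 probe and the dim H2AJ probe.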
